A study of Mus musculus with 4 samples.

Results

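Translation initiation factor genes were examined in an m6A meRIP-seq experiment on mouse c-Kit+ foetal liver cells. The members were the autosomal protein-coding genes of GENCODE M21 whose symbol is Eif followed by a digit, leaving out Eif2ak2, which gave 51 of 20807 autosomal protein-coding genes. The rule reads gene symbols and positions and no measured value. In meRIP-seq (also called m6A-seq), fragmented RNA is incubated with an antibody to N6-methyladenosine (m6A), and the captured fragments are sequenced beside the unselected input. The series has 4 samples, namely 2 immunoprecipitation (IP) replicates and 2 input replicates, and each IP replicate has its own list, with 15635 peaks in replicate 1 and 14872 in replicate 2. The cells were from C57BL/6 foetal livers and were enriched for Kit, a surface receptor of haematopoietic stem and progenitor cells, with magnetic beads. Per the study's methods they were Ythdf2 CTL cells, the study's name for Ythdf2 fl/fl controls without Cre, whose allele also fuses GFP to YTHDF2, and the replicates were biological. IP samples are labelled as total RNA and input samples as polyA RNA.

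All peak lists came from that 1 group of cells, so no contrast between genotypes, treatments or cell types was possible, and the values describe these 2 libraries. The lists hold peaks and no expression levels, so the labelled cell type could not be checked against its markers here. A gene without a peak may lack the modification, or may have had too few reads or too little enrichment to be called, and these cannot be told apart. Library totals are unknown, the control library and the calling threshold are not stated, and peaks carry no strand.

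Translation of most mRNAs starts when eIF4E binds the cap, eIF4G bridges it to the helicase eIF4A, and eIF3 brings the small ribosomal subunit carrying eIF2, GTP and the initiator Met-tRNA. eIF1, eIF1A and eIF5 govern the choice of the start codon, eIF5B joins the large subunit, and eIF2B recharges eIF2 with GTP until kinases that phosphorylate eIF2α block that step. m6A is written mostly at DRACH motifs, of which GGAC forms the core of the most favoured version, and YTHDF2 is a cytoplasmic reader that directs m6A-modified transcripts to decay. The antibody also binds m6Am, the methylated adenosine next to the cap, so peaks at the very 5′ end of a transcript can hold either mark.

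The sequences that follow are GGAC sites close to the peak summits of members with strong or informative peaks. They are read 5′ to 3′ on the gene's own strand from GRCm38 within 1 exon, 30 nt each, with the GGAC nearest to the middle of both summits in capitals and any further GGAC in lower case. Eif2ak3 encodes PERK, the eIF2α kinase of the endoplasmic reticulum. Its coding site (chr6:70892607-70892636, plus strand, exon 13 of 17) lay 6 and 7 nt from the summits of replicates 1 and 2, and its site near the stop codon (chr6:70904375-70904404, plus strand, exon 17) 45 and 30 nt away.
Eif2ak3, coding: cagttgcctgacGGACtgcgaggacgtgga
Eif2ak3, stop codon: cagttggactcgGGACcaatttttctaagt
Sites in first exons came from Eif6 (chr2:155826574-155826603, minus strand), Eif5b (chr1:37998182-37998211, plus strand) and Eif2s1 (chr12:78861965-78861994, plus strand). They are shown because the A of GGAC was at most 10 nt from both summits in Eif6 and Eif5b, and 10 and 25 nt from them in Eif2s1.
Eif6: cgcagggcgagaGGACttggggcaggagag
Eif5b: gcggcgcgagggGGACcgagccgagcgggc
Eif2s1: cccatattaggaGGACcaagactctatggt
Sites of genes whose products bind eIF4E and keep eIF4G from it came from the 3′ UTR of Eif4ebp2 (chr10:61431658-61431687, minus strand) and the stop codon region of Eif4enif1 (chr11:3244105-3244134, plus strand). A site in the alternative last exon of Eif4e2 (chr1:87238015-87238044, plus strand) lay 1 and 5 nt from the summits.
Eif4ebp2: ggagcctcctatGGACtctgaatcctgctg
Eif4enif1: tcacccatacctGGACctgtggtgacaccc
Eif4e2: ttcctggaagacGGACtctgctaaacacct

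A summit in an exon was found in both replicates for 21 of 51 initiation factor genes, or 41.2% (95% interval 27.6 to 55.8, exact Clopper-Pearson; it and the other intervals given cover counting error only). Over all autosomal protein-coding genes 31.9% had one, which lies inside that interval. Replicate 1 had a summit in 26 members and replicate 2 in 21, and the latter were all among the former. At least 1 replicate therefore gave 26 members, 51.0% (36.6 to 65.2), against 38.1% of all genes, which also lies inside the interval. The 5 members with a summit in replicate 1 alone were Eif3a, Eif3g, Eif4a2, Eif4g2 and Eif5a, and 25 members had none. Counting peaks enriched 4-fold or more alone, the number was 6 of 51 (Eif2ak3, Eif2b2, Eif2d, Eif2s1, Eif4ebp1 and Eif5b), a lower share than the 17.4% of all genes. No interval is given for this small count, and whether it differs from all genes beyond counting error was not tested.

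**Figure D1:**
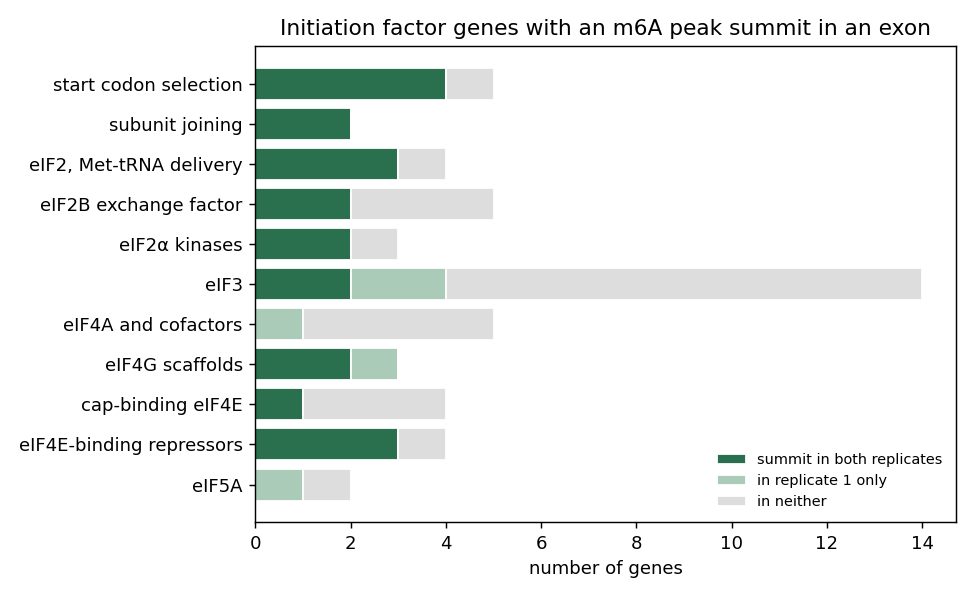
Number of initiation factor genes by role (bars, x axis in genes) with an m6A peak summit in an exon in both replicates (dark green), in replicate 1 only (light green) or in neither (grey). eIF3 holds 10 of the 25 genes with no exonic summit, while both subunit joining genes had one in both replicates.

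The bar plot by role shows how the peaks were spread, for which the background is the 31.9% of all genes with a summit in both replicates. Of the 5 genes grouped under start codon selection, Eif1ad among them, 4 had a summit in both replicates. Both genes of subunit joining also had one, as did 3 of 4 for eIF2 and Met-tRNA delivery. So did 2 of 3 eIF2α kinases, 2 of 3 eIF4G scaffolds and 3 of 4 eIF4E-binding repressors. The count was 2 of 5 for the exchange factor eIF2B, 1 of 4 for cap-binding eIF4E, 2 of 14 for eIF3, 0 of 5 for eIF4A and its cofactors and 0 of 2 for eIF5A. The 37 members outside eIF3 had 19 genes with a summit in both replicates, 3 with one in replicate 1 alone and 15 without. These groups are small and their members were counted once each, so the counts describe the lists and no test was made between roles.

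In the text, fold enrichment is the deposited ratio of IP signal to local background at the summit, each with 1 added. IP reads and background are the read coverage that this ratio and the p-value together imply, the latter in reads of the control. The q-value is given as −log10, so a larger number is a stronger peak.

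Among the factors that gate eIF2, the kinase gene Eif2ak3 had the strongest exonic peak of the family. Its exon 13 summit, inside the coding sequence, was enriched 9.59-fold in replicate 1 (94 IP reads over a background of 10.2, −log10 q 56.4) and 10.8-fold in replicate 2 (90 reads over 7, −log10 q 55.5), a mean of 10.2 ± 0.88 (SD, n = 2). The summits were 1 nt apart. Those folds stood at percentiles 94.8 and 95.2 of all exonic peaks of their replicate. The 121 nt around the summits (chr6:70892555-70892675, plus strand, all in exon 13) held 6 copies of GGAC, capitalised here to show how densely they lie.
Eif2ak3, exon 13: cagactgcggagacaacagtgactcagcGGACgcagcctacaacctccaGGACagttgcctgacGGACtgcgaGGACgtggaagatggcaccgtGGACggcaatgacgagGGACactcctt
A separate peak near the stop codon of Eif2ak3 was enriched 8.69-fold and 6.01-fold, a mean of 7.35 ± 1.9 (SD, n = 2), on 76 reads over 9 and 81 reads over 12. Eif2ak3 thus held 2 of the 3 highest pairs of peaks by mean fold.

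Eif2ak1, the haem-regulated kinase that couples globin synthesis to haem supply in erythroid cells, had a pair of peaks in its last exon. The one near its stop codon reached 2.48-fold and 1.99-fold on 168 and 160 reads, over backgrounds of 77 and 76. The one in the 3′ UTR reached 2.33-fold and 2.12-fold, but its summits also lay in an exon of Aimp2 on the opposite strand and cannot be given to either gene. Eif2ak4, the amino acid sensor GCN2, had no summit although its transcript of 5212 nt holds 23 GGAC, the most of the 25 members without a peak.

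Eif2s1, the α subunit of eIF2 that the kinases phosphorylate, carried a 5′ UTR peak of 4.78-fold and 5.32-fold on 58 and 66 reads (mean 5.05 ± 0.383). Eif2s2, the β subunit, had none. Eif2a, which encodes the separate factor eIF2A rather than eIF2α, had a coding peak in exon 10 of 2.57-fold and 2.31-fold with summits at the same base. The peak of Eif2d, a factor able to deliver tRNA without GTP, was narrower in its support, at 6.73-fold on 37 reads over 5.32 and 6.37-fold on 34 reads over 4.24. Its summits, 143 nt apart, lay in a last exon of 1807 nt (chr1:131178600-131180406) that the transcript with the longest coding sequence does not use, 1128 and 985 nt past the stop codon of the transcript that does.

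eIF2B, the exchange factor that the phosphorylated form of eIF2 inhibits, has 5 subunits. Eif2b2 (β subunit) had a peak at its start codon of 5.49-fold and 4.89-fold on 86 and 76 reads (mean 5.19 ± 0.425), with summits 6 and 1 nt past the first base of the codon. A further peak at its stop codon, 2.48-fold on 127 reads, was in replicate 1 alone. Eif2b1 (α subunit) had a 3′ UTR peak of 2.47-fold and 2.24-fold. Eif2b3, Eif2b4 and Eif2b5 had no exonic summit, but for Eif2b3 that rested on a few bases. Its peak was enriched 11.6-fold in replicate 1 (61 reads over 5, −log10 q 43.2) and 11-fold in replicate 2 (68 reads over 5, −log10 q 43.1). The summits fell 23 and 15 nt outside exon 2, in intron 1, and 33 and 25 nt before the start codon that exon 2 holds. No other gene's exon was touched by the peak, and no GGAC lay within it. Eif2b3 was the 1 gene added by a rule that accepts a peak touching an exon anywhere, which gave 22 members. Eif2ak3 also had an intronic summit in both replicates, 13 and 30 nt before exon 14, of 7.37-fold and 9.77-fold on 45 and 40 reads. Unlike the peak of Eif2b3, the stretch under it held GGAC, in 4 copies, and the copy nearest to the summits lay in exon 14.

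In the start codon selection group, the strongest pair by its smaller −log10 q (18.8) was in Eif1ad, followed by Eif1a (18.1). Eif1ad is named for its eIF1A-like domain and was placed in the group by hand. Whether it acts in the choice of the start codon was not examined here. The 5′ UTR peak of Eif1ad reached 3.36-fold and 3.16-fold on 102 reads in each replicate. Its summits also lay in an exon of Banf1 on the opposite strand and cannot be given to either gene. Its stop codon peak was lower, at 1.74-fold and 1.57-fold over backgrounds of 99 and 87. Eif1a, which encodes a partner of eIF1 on the scanning ribosome, had a peak of 2.31-fold and 2.70-fold on 165 and 169 reads in its last exon, with summits 141 nt apart, in the coding sequence in replicate 1 and within 200 nt of the stop codon in replicate 2. The paralogues Eif1 and Eif1b differed in status. Eif1b had a stop codon peak of 1.83-fold and 1.79-fold with summits 1 nt apart, and Eif1, which guards the fidelity of scanning, had none of its own. Eif1 has 10 near-copy loci in the genome, and 1 peak in each replicate lay in such a copy, so its status is uncertain. Eif5, the GTPase-activating partner of eIF2, had a 3′ UTR peak of 1.88-fold and 1.68-fold on 127 and 129 reads.

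Both factors that act on the joining of subunits had peaks around the start codon. Eif6, whose product keeps the large subunit apart until it is mature, reached 3.79-fold and 4.05-fold (mean 3.92 ± 0.188, n = 2) on 145 and 148 reads over 43 and 34, and had the second highest −log10 q of the family with a summit in an exon, 36.3 and 37.7. Eif5b, the GTPase that joins the subunits, was the only member with 3 pairs of peaks. They lay near the start codon (4.07-fold and 5.20-fold), in coding exon 4 (1.60-fold and 1.42-fold) and near the stop codon (2.07-fold and 2.36-fold). The middle one was the weakest pair by fold of all, with −log10 q of 4.06 and 1.32.

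Genes for proteins that hold eIF4E in check had peaks in 3 of 4 cases, with the highest −log10 q in Eif4ebp2. Eif4ebp2, a 4E-BP released from eIF4E by mTOR signalling, had a 3′ UTR peak of 3.35-fold and 3.01-fold on 164 and 151 reads (mean 3.18 ± 0.239, −log10 q 34.8 and 25.6). Eif4ebp1, its best studied relative, had a 3′ UTR peak of 1.86-fold and 1.90-fold on 170 and 157 reads. The start codon peak of Eif4ebp1 was far less certain in height, 5.52-fold on 19 reads over 3 and 11.9-fold on 24 reads over 1, which gave 8.72 ± 4.52 (SD, n = 2). Eif4enif1, which carries eIF4E into the nucleus and into processing bodies, had a stop codon peak of 2.73-fold and 3.12-fold, and Eif4ebp3 had none. Among the cap-binding proteins, Eif4e, Eif4e1b and Eif4e3 had no summit, although Eif4e has a 3′ UTR of 4192 nt. Eif4e2, the cap-binding homologue that represses rather than starts translation, had 2 pairs of peaks, of 4.03-fold and 3.91-fold, and of 3.86-fold and 2.86-fold. Both lay in an alternative last exon of 2643 nt (chr1:87237846-87240488). A start codon peak of Eif4e2, 4.70-fold on 16 reads over 3, was found in replicate 1 alone.

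The shared peaks of the eIF4G scaffolds were enriched less than 2-fold. Eif4g1, the main scaffold, had a coding peak in exon 9 of 1.60-fold and 1.65-fold and a stop codon peak of 1.81-fold and 1.82-fold, the latter on 220 and 219 reads over 139 and 114. Eif4g3 had a coding peak in exon 11 of 1.83-fold and 1.93-fold. Eif4g2, whose product DAP5 lacks the eIF4E-binding region, had a 5′ UTR peak of 4.55-fold on 103 reads over 25 (−log10 q 32.2), and no peak of replicate 2 overlapped it. That was the strongest peak of the family by q seen in 1 replicate, followed by a 5′ UTR peak of Eif5a, 4.02-fold on 94 reads over 25.9 (−log10 q 25.5). Eif5a carries the hypusine residue needed for elongation and termination, and its paralogue Eif5a2 had no peak. Eif4a2, the helicase isoform, had a peak of 1.57-fold in replicate 1 alone, and Eif4a1, Eif4a3, Eif4b and Eif4h had none in an exon.

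eIF3, the large complex that holds the small subunit to the mRNA, had a summit in both replicates in 2 of 14 genes. The share was 31.9% of all genes and 17.2% of all genes under 2000 nt. The set is small, has no interval here, and was not compared by length. Among its 14 genes, Eif3j1 had a start codon peak of 6.26-fold and 3.81-fold on 49 and 35 reads over 8 in each replicate, and Eif3b one of 3.21-fold and 2.07-fold on 42 and 36 reads. The summits of Eif3j1 also lay in the microRNA gene Gm47314 on the same strand, and leaving out such shared summits reduced the members with a peak in both replicates to 20. Eif3j1 and Eif3j2 are near copies, so reads could be placed in either and the status of both is uncertain. In replicate 1 alone, Eif3a had coding peaks of 2.45-fold and 1.61-fold on 158 and 241 reads, and Eif3g a start codon peak of 1.58-fold. Eif3c, Eif3d, Eif3e, Eif3f, Eif3h, Eif3i, Eif3j2, Eif3k, Eif3l and Eif3m had no summit in either.

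**Figure D2:**
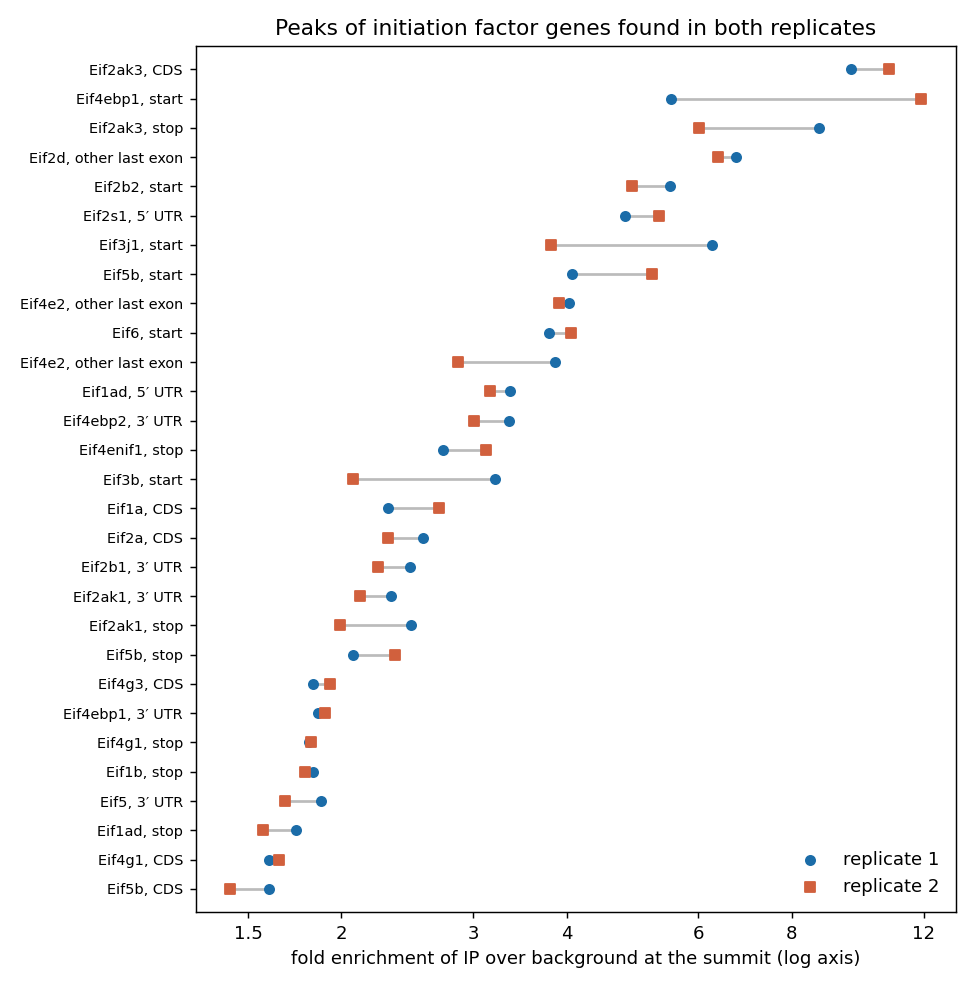
Fold enrichment of IP over background (x axis, log scale) at the 29 peaks of initiation factor genes found in both replicates, ordered by mean. Blue circles are replicate 1, orange squares replicate 2, and labels give the gene and region of the replicate 1 summit. Eif2ak3 is at the top with 9.59 and 10.8, most points lie under 4, and the widest gap is Eif4ebp1 at 5.52 and 11.9.

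Peaks of the family that were found in both replicates had similar folds in most pairs, as the plot of paired fold enrichments shows. Of 37 exonic peaks in replicate 1, 29 (78.4%, 61.8 to 90.2) overlapped a peak of replicate 2, and all 29 of replicate 2 (100%, 88.1 to 100) overlapped one of replicate 1. The same shares over all autosomal protein-coding genes were 85.2% and 87.5%. Summits of a pair were a median of 11 nt apart and at most 143 nt, with 23 of 29 within 50 nt. The fold differed by less than 1.5-fold between replicates in 26 of 29 pairs, with an SD of the log2 difference of 0.34, and was higher in replicate 1 in 17 pairs and in replicate 2 in 12. The 3 exceptions were Eif4ebp1 and Eif3j1 at the start codon and Eif3b. Among the 8 peaks of replicate 1 without a partner, fold ran from 1.57 to 4.70, reads from 16 to 241 and −log10 q from 1.99 to 32.2, so they were not confined to weak peaks. Of the 21 members, 14 had 1 pair of peaks, 6 had 2 and 1 had 3.

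**Figure D3:**
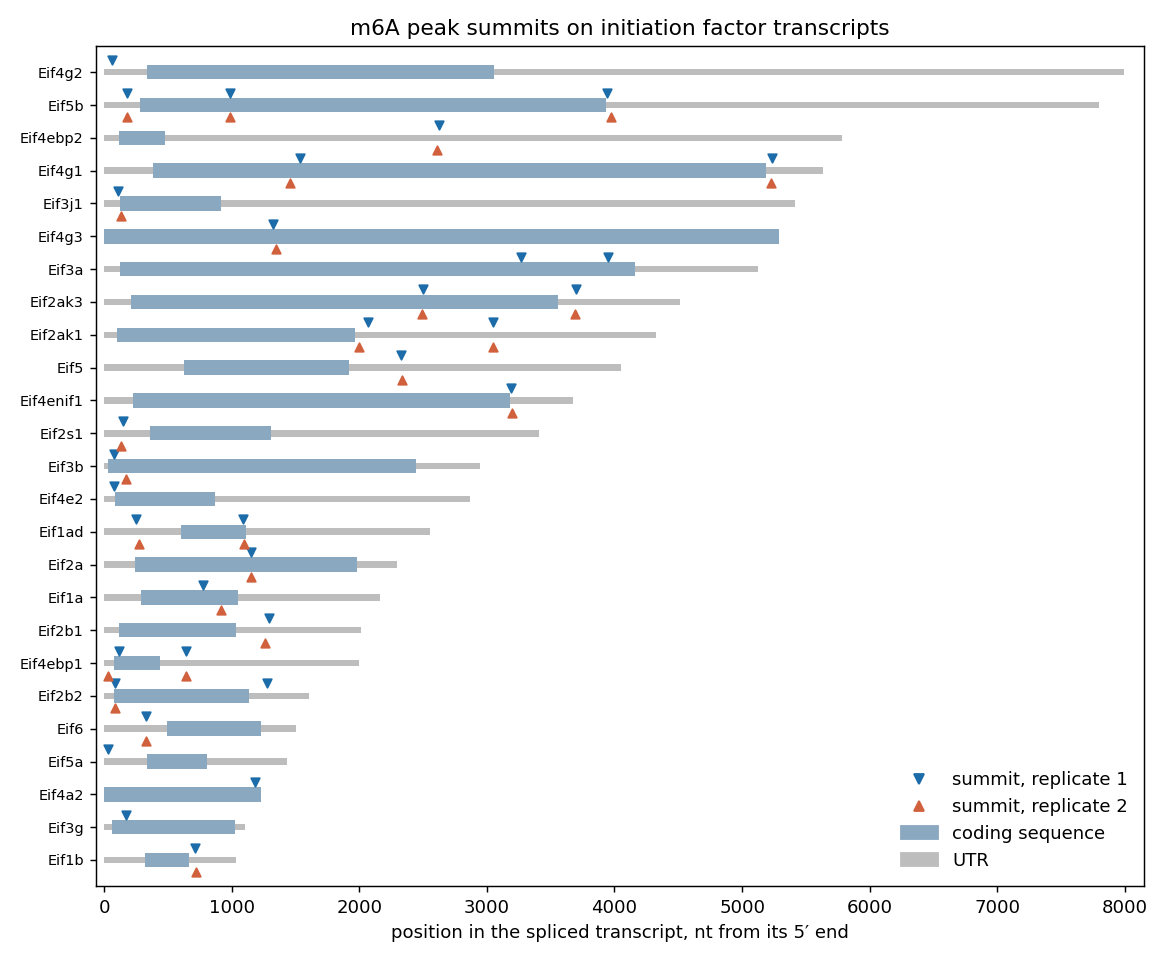
Peak summits on the spliced transcript with the longest coding sequence (x axis, nt from the 5′ end) of 25 members, ordered by length. Blue and orange triangles are summits of replicates 1 and 2, wide bars the coding sequence and thin bars the UTRs as annotated, with none annotated for Eif4g3 and Eif4a2. Summits gather in first exons of Eif5b, Eif2s1, Eif2b2 and Eif6 and near stop codons, and Eif2d is missing because its summits lie in another last exon. Eif4e2 shows only its replicate 1 start codon summit, as its other summits lie in an alternative last exon.

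Along the transcripts, 60 of the 66 summits of both replicates could be placed on the transcript with the longest coding sequence, as the transcript map shows. Within 200 nt of the stop codon lay 28.3% of them (30% of summits in all genes) and in the rest of the 3′ UTR 16.7% (17.8%). The start codon region held 23.3% (13.4 to 36.0) against 15.1% of summits in all genes, and the rest of the 5′ UTR 10% (3.76 to 20.5) against 3.94%. The rest of the coding sequence held 21.7% (12.1 to 34.2) against 33.1%. By exon, first exons held 31.7% (20.3 to 45.0) against 16.7%, and last exons 48.3% (35.2 to 61.6) against 61.2%. The 6 summits that could not be placed, of Eif2d and Eif4e2, lay in last exons of other transcripts and are not in these shares. Summits of both replicates at 1 site were counted separately in these shares, so the intervals are narrower than the number of sites would give. Within single replicates first exons held 32.4% (17.4 to 50.5) against 16.3% in replicate 1, and 30.8% (14.3 to 51.8) against 17.1% in replicate 2, where the interval includes the value of all genes. For last exons the single-replicate intervals, 29.8 to 64.9 and 29.9 to 70.1, also include the values of all genes, 61.5% and 60.9%. The 19 summits in first exons came from 11 genes and stood a median of 128 nt from the annotated 5′ end (27 to 329), with 15 of them within 200 nt. Whether any of these reflect m6Am cannot be told from the lists. For 59 of 66 summits, every coding transcript of the gene that held the summit gave the same region.

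GGAC was searched in the spliced transcript itself, that is, on its own strand and across exon junctions, and occurred within 50 nt of 68.3% (55.0 to 79.7) of the members' summits, against 55.9% of summits in all genes. For scale, 33.7% of all 146799 windows of the same 101 nt along the members' transcripts hold GGAC. DRACH, the wider motif that includes part of these matches, was within 50 nt of 91.7% of summits, but 87.8% of all windows hold it. For 28 of the 29 pairs of peaks the nearest GGAC was located, leaving out Eif1a. Within 50 nt of both summits lay 18 of these sites, and 4 lay within 10 nt. The base after GGAC was t in 13, c in 7, a in 5 and g in 3 sites, as in the sequences printed for Eif6 (t) and Eif5b (c).

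**Figure D4:**
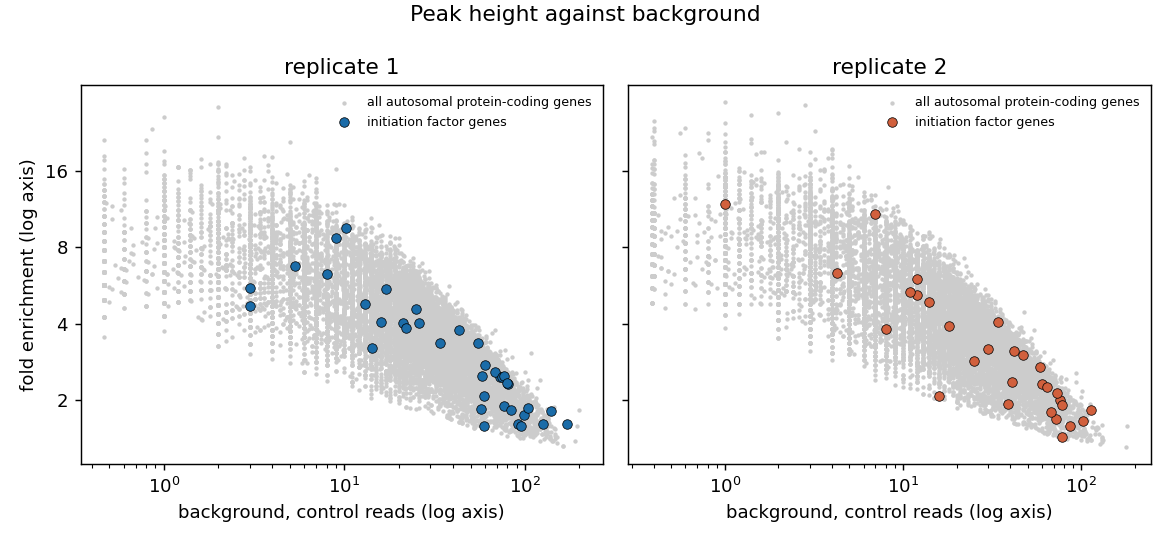
Fold enrichment (y axis, log scale) against background in control reads (x axis, log scale) for exonic peaks of replicate 1 (left) and replicate 2 (right). Grey points are all autosomal protein-coding genes and coloured points the initiation factor genes, which lie mostly at the right, with 23 and 17 peaks over backgrounds of at least 30 reads and median folds there of 2.07 and 1.99.

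Peaks of initiation factor genes stood on high background, as the plot of fold against background shows. Their median fold was 2.57 in replicate 1 and 2.70 in replicate 2, against 4.11 and 4.30 for exonic peaks of all genes. Folds under 4 made up 25 of 37 (67.6%) and 21 of 29 (72.4%) peaks, against 47.6% and 44.6%. The members' peaks did not have fewer reads. They had a median of 127 and 117 IP reads against 71 and 69, while their median background was 58 and 41 control reads against 18.2 and 14. Within classes of background the gap was smaller or, under 30 reads in replicate 2, reversed. The highest class, which held most of the members' peaks, has no upper limit, and backgrounds were not matched within it. With at least 30 background reads the members' median folds were 2.07 and 1.99 (23 and 17 peaks) against 2.68 and 2.46, with 10 to 30 reads 4.07 and 4.40 (9 and 8 peaks) against 4.27 and 3.97, and below 10 reads 6.26 and 8.60 (5 and 4 peaks) against 6.38 and 6.58. The median fold was lower where the background was higher in both replicates, and the background is itself a term of the fold ratio. Its part in the lower fold of the members was not tested.

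The height of a peak also went with its place in the transcript, but the background differed between places too, and the 2 were not separated. In the 5′ UTR and start codon region, the median fold was 4.31 (12 summits) and 4.47 (8 summits), over backgrounds of 16.5 and 13 reads. In the rest of the chosen transcripts it was 2.19 (22 summits) and 2.06 (18 summits), over 76.8 and 66 reads. With the 3 summits per replicate in the other last exons of Eif2d and Eif4e2 added, which had 3.86 to 6.73-fold and 2.86 to 6.37-fold, it was 2.33 (25 summits) and 2.24 (21 summits), over 75 and 60 reads. Of 8 pairs at the 5′ end, 4 had at least 4-fold enrichment in both replicates, namely Eif2b2, Eif2s1, Eif4ebp1 and Eif5b. Of the 21 pairs elsewhere, those last exons included, 3 did, which were the coding and stop codon peaks of Eif2ak3 and the last exon of Eif2d. In 8 pairs the fold was under 2 in both replicates. Members with both a 5′ end pair and another pair were Eif1ad, Eif4ebp1 and Eif5b, though the 5′ end summits of Eif1ad also lay in an exon of Banf1. The same order of places held in all genes, at 5.19 and 5.69 in the 5′ end and 3.87 and 4.01 elsewhere.

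Members with and without peaks differed in size. The median transcript was 2945 nt in the 21 members with a summit in both replicates and 1899 nt in the 25 without, the median 3′ UTR 977 and 298 nt, the last exon 1158 and 327 nt, and the number of GGAC 12 and 7. Coding sequences were of like length, 1056 and 1086 nt. Over all genes the transcripts had medians of 3340 and 2202 nt and the 3′ UTRs of 1172 and 548 nt, so the same direction held there. Among members under 2000 nt, 4 of 21 (19.0%) had a summit in both replicates against 17.2% of all genes of that length. From 2000 to 4000 nt, 9 of 17 (52.9%) did against 36.1%, and from 4000 nt 8 of 13 (61.5%) against 46.6%. The 10 eIF3 genes without a summit had 3′ UTRs of 35 to 1537 nt (median 153.5) on transcripts of 774 to 3383 nt, with 1 to 19 GGAC, and 8 of the 14 eIF3 genes had a 3′ UTR under 200 nt.

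Near-identical copies elsewhere in the genome, such as processed pseudogenes, can take reads from a gene. A copy of at least 95% identity that covered 50% or more of the transcript was found for 1 of 21 members with a summit in both replicates (Eif3j1), for 1 of 5 with a summit in 1 replicate (Eif5a) and for 7 of 25 without (Eif2s2, Eif3e, Eif3h, Eif3j2, Eif3m, Eif4a1 and Eif4a3). How reads with several placements were counted is not stated in the sources used here, so the absence of a peak in those 7 genes, and in Eif1, whose best copy covers 49.8% of its transcript, is uncertain, and the part of such copies in it was not tested.

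Other genes of translation were counted in the same way. Listed were 35 genes for elongation, termination, poly(A) tail and cap partners, initiation helpers, signalling kinases with a partner, and the eIF2 phosphatase and stress response. Of these, 34 were matched by symbol (Gcn1 was not). A summit in both replicates was found in 14 of 34 (41.2%, 24.6 to 59.3), the same percentage as in the initiation factor genes. The interval includes the 31.9% of all autosomal protein-coding genes, which is the background for these counts. The list was chosen with earlier results of these data known. By group, 3 of 7 elongation genes had a summit in both replicates, as did 2 of 3 for termination and recycling. The count was 1 of 7 for poly(A) tail and cap partners and 1 of 5 for initiation helpers. It was 2 of 7 for the eIF2 phosphatase and stress response, with the unmatched Gcn1 among the 7. Of 6 genes listed for signalling to the initiation factors, 5 had one. They were Mtor and its partner in the mTORC1 complex Rptor, the S6 kinase genes Rps6kb1 and Rps6kb2, and Mknk1, whose product phosphorylates eIF4E. Mknk2 had one in replicate 1 alone, at 1.47-fold. The elongation kinase Eef2k reached 10.4-fold and 11-fold, level with Eif2ak3. Ppp1r15a and Ppp1r15b, which direct the phosphatase that undoes the work of the eIF2α kinases, both had summits in each replicate, at up to 5.78-fold and 5.87-fold for Ppp1r15a. The share was below that background in ribosomal and proteasome genes. A total of 9 of 79 cytosolic ribosomal protein genes (11.4%, 5.34 to 20.5) and 7 of 49 proteasome subunit genes (14.3%, 5.94 to 27.2) had a summit in both replicates. For the eIF3 genes it was 2 of 14, a set too small to be placed below the background without an interval, which is not given. The background of 31.9% covers genes of all lengths, and the share was 17.2% for all genes under 2000 nt. Ribosomal and proteasome genes were not compared by length, and near copies of them were not searched.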

How the data were processed

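The authors aligned reads of the IP and input libraries to GRCm38 (mm10) with HISAT2 and called peaks in each IP replicate with MACS2 (version 2.1.1.20160309, nomodel). The deposited lists give for each peak a score, a fold enrichment (a ratio of IP to local background), −log10 p-value and −log10 q-value, and the offset of the summit. IP and background reads behind each summit were recovered from the deposited fold and −log10 p-value, which matched in 100% of peaks within 0.001 in −log10 p. Summits were placed in exons of the GENCODE M21 basic set, and positions taken on the transcript with the longest coding sequence, the stop codon (within 200 nt) taking precedence over the start codon. Peaks were shared when they overlapped by 1 bp. Read recovery and placement were checked on simulated data. Near copies came from blastn 2.17.0 (at least 95% identity over 100 nt). Python 3.11.15, numpy 2.4.6 and scipy 1.17.1 were used. Alternatives were other rules of overlap, annotation, windows, peak thresholds and single replicates. Full values were set for the 12 members with the highest smaller −log10 q of a pair, the 3 with the highest smaller fold, and paralogue sets. Eif2b3's intronic peak was described after its values were seen. Members and lists were chosen with earlier results of these data known. Input libraries were not analysed here.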

Additional observations from a re-analysis of the deposited data

How the results depend on the processing

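The number of members with a summit in both replicates was 21 of 51, against 31.9% of all genes. It was 22 with any overlap with an exon (33.6% of all genes) and 21 with the comprehensive annotation (32.6%). It was 20 without shared exons (30%) and 18 with −log10 q of at least 5 (29.9%). With fold enrichment of at least 4 it was 6, a lower share than the 17.4% of all genes, but no interval is given for this small count. Counts that do not need both replicates were 26 in replicate 1 (35.5%) and 21 in replicate 2 (34.5%). Either replicate gave 26 (38.1%). The share of member peaks that overlapped a peak of the other replicate was 87.9%, 70.0% at 4-fold or more, and 78.4 to 100% for each replicate alone. Summits at the stop codon made up 28.3%, 41.7% with a window of 400 nt, 11.8% at 4-fold or more (17 summits) and 26.5 to 30.8% in single replicates. The coding sequence held 21.7%, 11.8% at 4-fold or more and 19.2 to 23.5% in single replicates. GGAC was near 68.3% of summits, 80.0% within 100 nt, and 67.6 to 69.2% in single replicates. The median fold of 2.63 became 3.12 with −log10 q of at least 5 and was 2.57 to 2.70 in single replicates. No paired analysis was possible because the input samples had no peak list here and no result came from a test. Depth limits what can be said of members without a peak, since library totals and expression are unknown, and fold of peaks on 1 to 8 background reads, such as those of Eif4ebp1 and Eif3j1, rests on few reads. Isoforms, gene overlaps on opposite strands and near copies were not resolved.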

Other observations

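Besides the intronic summits of Eif2b3 and Eif2ak3, 2 intronic summits were seen in replicate 2 alone. One lay in intron 1 of Eif4b, 350 nt from the nearest exon, at 4.15-fold on 19 reads over 3.6, and the other within the gene of Eif1a, 5938 nt from an exon of its longest coding transcript, at 8.89-fold on 18 reads over 1.04. Neither peak touched an exon. Besides those of Eif1, near copies of Eif4a1, which had no exonic summit of its own, held 1 peak in replicate 1. In the eIF2 stress response, the transcription factor gene Atf4 had a summit in replicate 2 alone, at up to 3.81-fold, and Impact, which restrains GCN2, in replicate 1 alone at 5.76-fold.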
